A study of Homo sapiens and Mus musculus with 19 samples.

Results

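The DNA-binding subunits of NF-kappa-B and a group of its feedback genes were followed in chromatin-associated RNA (caRNA) of K562 cells. The 10 members were NFKB1, NFKB2, REL, RELA and RELB, which encode the subunits, NFKBIA, NFKBIE and NFKBIZ, which encode proteins of the I-kappa-B family, and TNFAIP3 and BIRC3, which encode a ubiquitin-editing enzyme and a ubiquitin ligase. They were taken by name from the human count tables, in which 10 of 58721 genes were members. All 10 passed the filter on low counts and stood among the 26023 genes tested. K562 is a human leukaemia line with erythroid features, and caRNA is the RNA that stays with the chromatin pellet after nuclei are opened, so it is rich in transcripts still being made. The study compared cells that carry TET2, a dioxygenase that oxidises methylated cytosine, with TET2 knockout cells, each with a control short hairpin RNA or with one against MBD6, a methyl-CpG-binding domain protein. The 4 groups of 3 libraries were TET2 WT shControl, TET2 WT shMBD6, TET2 KO shControl and TET2 KO shMBD6. By the labels every group carried a hairpin. The study kept its hairpin lines under puromycin, but its list of libraries names small interfering RNA (siRNA) for these libraries. Whether they came from the selected lines is therefore not settled here. The study describes its genome-wide data as biological replicates, and the p-values measure the spread between the 3 libraries of a group. The sources used here do not say whether the knockout line was a single clone.

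NF-kappa-B proteins work as pairs. RELA, REL and RELB carry transactivation domains, whereas the products of NFKB1 and NFKB2 are cut from longer precursors into the p50 and p52 subunits. In resting cells I-kappa-B proteins hold the pairs in the cytoplasm, and a kinase complex switched on by cytokine or antigen receptors marks them for destruction. Freed pairs then bind DNA and switch on, among other genes, NFKBIA and TNFAIP3, whose products turn the response off again.

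The sequence this feedback is known for was present in most of the members' promoters. The strict NF-kappa-B consensus was searched on both strands in windows from 250 bases before to 50 bases after each transcript start, taken from RefSeq on GRCh38. Of the 10 members 8 had a window in that table, and 7 of these 8 held at least 1 match, RELA being the exception. Across all genes with a window 7.09% held a match (1937 of 27305). Counted by window, 9 of the 13 member windows held the motif, against 5.91% of all 35116. The list was named for NF-kappa-B and its feedback, so this contrast with all genes follows from the choice and is no independent support. In a looser form, with the 5 central bases left free, the motif was in the windows of all 8 members and of 61.7% of all genes, so that form tells little. RELB (chr19:45001461-45038192, + strand, GENCODE on GRCh38) and NFKBIE (chr6:44258166-44265788, - strand) had no window in the table. The stretches below are printed because they are the sites nearest to the starts of genes whose values follow, both sites of the pair being given for TNFAIP3. Capitals mark the match, overlapping matches on the 2 strands are joined, and each stretch reads 5′ to 3′ in the direction of its gene.
NFKB1 (chr4:102501300-102501329, + strand): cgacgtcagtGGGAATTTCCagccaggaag
REL (chr2:60881517-60881547, + strand): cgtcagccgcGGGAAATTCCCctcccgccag
NFKB2 (chr10:102395674-102395703, + strand): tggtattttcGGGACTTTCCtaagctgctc
NFKBIZ (chr3:101827757-101827786, + strand): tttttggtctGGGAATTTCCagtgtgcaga
TNFAIP3, distal site (chr6:137867182-137867211, + strand): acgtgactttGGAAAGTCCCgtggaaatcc
TNFAIP3, proximal site (chr6:137867194-137867223, + strand): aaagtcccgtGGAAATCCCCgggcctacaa
BIRC3 (chr11:102317339-102317368, + strand): tattaccgctGGAGTTCCCCtaagtcctaa

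The promoter of NFKBIA, the classical feedback inhibitor, is given whole for the 250 bases before its start (chr14:35404750-35404999, - strand), with its single match in capitals.
NFKBIA: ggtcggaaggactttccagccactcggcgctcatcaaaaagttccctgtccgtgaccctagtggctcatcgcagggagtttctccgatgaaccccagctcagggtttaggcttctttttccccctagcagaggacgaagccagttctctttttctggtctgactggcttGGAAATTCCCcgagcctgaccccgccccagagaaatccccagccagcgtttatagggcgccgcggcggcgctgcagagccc
That match began 81 bases before the start. In REL it began 47 bases before, in NFKB1 49, and in TNFAIP3 the paired sites began 67 and 55 bases before, whereas the match nearest the first NFKBIZ start lay 223 bases away. A match describes letters in a window and was not read as a bound site.

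**Figure D1:**
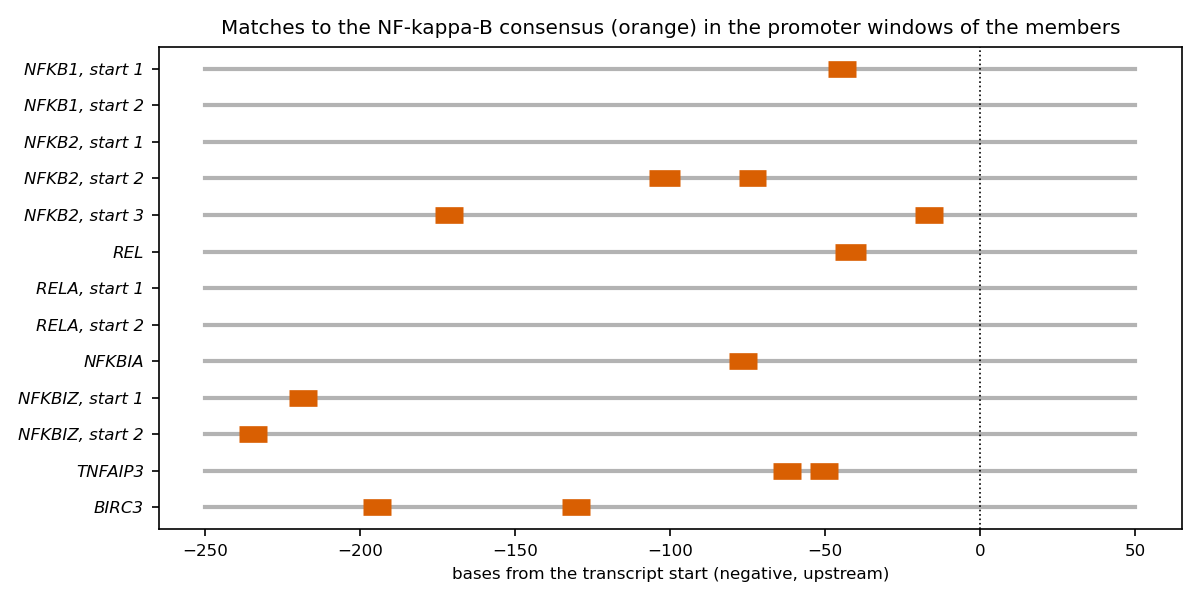
Positions of matches to the strict NF-kappa-B consensus (orange boxes) in the 13 promoter windows of 8 members; the x axis gives bases from the transcript start, negative upstream, and genes with several starts have a line for each. Matches stood in 9 of the 13 windows, and both RELA windows were without one.

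The libraries held 52158403 to 102070223 counts on genes, and members were compared as CPM, counts scaled to the library total with TMM factors. Genes with any count numbered 28970 to 31932 in WT shControl and 33529 to 34601 in WT shMBD6. They numbered 28400 to 29073 in KO shControl and 24480 to 26963 in the libraries labelled KO shMBD6. These numbers did not follow depth, as the smallest library was WT shMBD6 replicate 2. Their part in the calls of genes with few counts was not tested. MBD6 checked the hairpin labels. In TET2 WT cells MBD6 stood at 43.3, 42.7 and 38.6 CPM with shControl and at 31, 25.7 and 27.2 with shMBD6, which was lower by -0.57 ± 0.08 on the log2 scale (± SE here and for all log2 changes, with Benjamini-Hochberg adjusted p = 1.83e-07 by edgeR). Scaling on genes well above background took this to -0.34, still called. A gene was called where this adjusted p, taken over all genes tested by edgeR's quasi-likelihood test, was under 0.05, and each call was repeated under alternative settings, namely other scalings, filters, models and tools and each library left out. In TET2 KO cells it stood at 30.6, 30.8 and 29.4 CPM with shControl and at 30.6, 38.3 and 34.2 in the libraries labelled shMBD6 (log2 change 0.19 ± 0.08, adjusted p = 0.0574 by the same edgeR test), which goes against the label. Of 21 settings 9 called MBD6 higher in these libraries, up to 0.31 by total gene counts. MBD6 was also lower in KO shControl than in WT shControl (-0.46 ± 0.08, edgeR adjusted p = 6.5e-06, called in all 22 settings), near the level of WT shMBD6. Directions drawn from the libraries labelled KO shMBD6 therefore rest on their label alone. TET2 RNA was not lower in KO shControl than in WT shControl (mean 129 against 121 CPM, n = 3 each). In the libraries labelled KO shMBD6 it was 94.8 CPM, lower than the 122 CPM of WT shMBD6 (-0.36 ± 0.04, edgeR adjusted p = 3.9e-09) and than KO shControl (-0.44 ± 0.04, edgeR adjusted p = 7.24e-11), each in all 21 settings. The sources used here do not give the edited position, so these counts do not check the knockout. Neither MBD6 nor TET2 RNA checks the label KO shControl, and contrasts written as TET2 loss rest on the labels. The summed level of 10 erythroid genes was 477 to 497 CPM in WT shControl, 274 to 295 in WT shMBD6, 195 to 207 in KO shControl and 281 to 293 in the libraries labelled KO shMBD6, so erythroid RNA moved with the groups. Within these 10, LMO2 ranged from 52 to 249 CPM over the libraries, TAL1 from 87.7 to 138 and GATA1 from 33.2 to 58.5. The globin genes HBG2 and HBE1, which K562 is known for, were listed at 0 in every library, and HBG1 at 0.798 to 6.82 CPM. A listing at 0 does not show that a gene was not transcribed. Markers of T cells, B cells, monocytes and fibroblasts each summed to at most 5.2 CPM. The part of these shifts in the results for the members was not tested.

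Within the 10, the A20 gene TNFAIP3 and RELA had the highest levels per gene length and RELB and BIRC3 the lowest. On the scale of CPM per kb of gene span, introns included, the WT shControl means were 3.15 ± 0.24 for TNFAIP3 and 3.01 ± 0.158 for RELA (SD, n = 3), which did not differ beyond their spread. NFKBIA followed at 1.97 ± 0.516, NFKBIE at 1.45 ± 0.087 and NFKB2 at 1.38 ± 0.0559, and the last pair did not differ beyond their spread. A lower tier held NFKBIZ at 0.828 ± 0.0585, REL at 0.729 ± 0.0608 and NFKB1 at 0.526 ± 0.0125 CPM per kb, with the libraries of NFKBIZ and REL overlapping. RELB stood at 0.0224 ± 0.00707 and BIRC3 at 0.0132 ± 0.0109 CPM per kb. In WT shControl NFKB1 thus had the most counts of the 5 subunit genes but, with a span of 115.97 kb, the fewest per kb of span after RELB. The order between the highest and lowest members depended on the length used. Per kb of the union of exons, WT shControl means were 4.64 CPM for NFKBIZ, 4.29 for NFKBIE and 3.89 for NFKB1. NFKBIA and REL were at 2.13 each and NFKB2 at 2.08, so on that scale NFKB1 stood above REL and NFKB2. As a measure of stray signal, 400 olfactory receptor genes, which this cell type has no known use for, averaged 0.0636 CPM per kb in WT shControl, with a median gene at 0. RELB and BIRC3 lay under the group's own mean in every group, although 89.8% and 84.8% of the olfactory receptor genes were lower still in WT shControl. The other 8 members lay above the mean in every group. With the union of exons as the length, 9 members did, RELB joining them at 0.275 CPM per kb of exon in WT shControl.

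**Figure D2:**
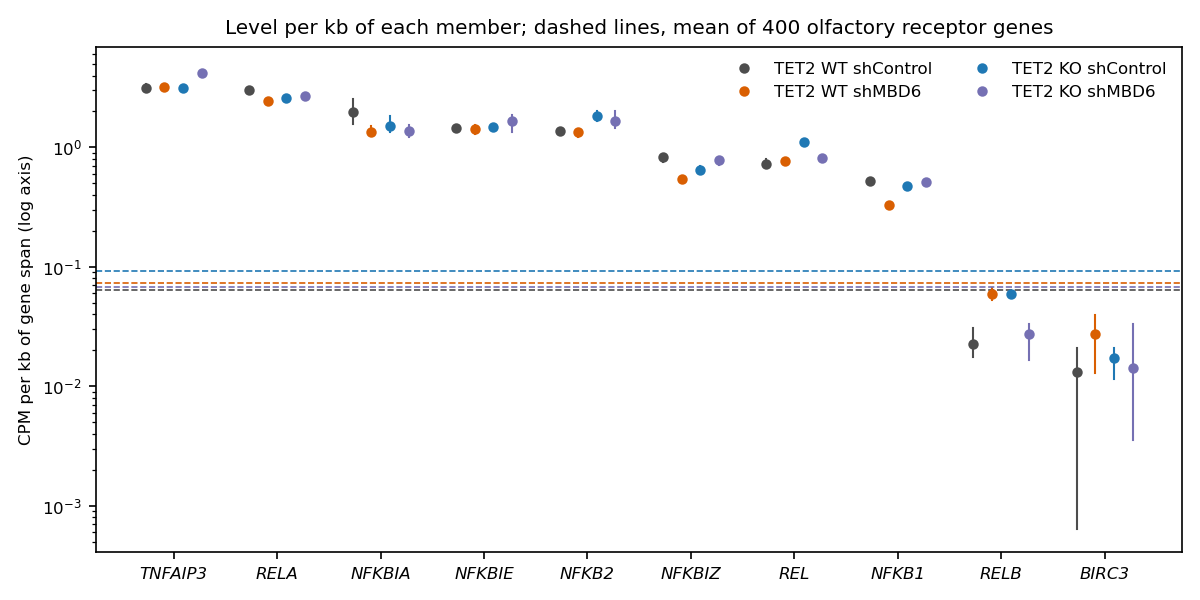
Mean level of each member per kb of gene span (log axis) in the 4 groups, with vertical lines from the lowest to the highest of 3 libraries and dashed lines at the mean of 400 olfactory receptor genes in the group of the same colour. RELB and BIRC3 sat below the dashed lines and the other 8 members above them.

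Among the subunits NFKB1 had the smallest adjusted p for the MBD6 hairpin in WT. NFKB1, which encodes p105 and its product p50, stood at 60.1, 62.7 and 60.3 CPM in WT shControl, at 38.5, 39.5 and 36.3 in WT shMBD6, at 52.9, 56.5 and 54.5 in KO shControl and at 62.2, 57.4 and 60.1 in the libraries labelled KO shMBD6. The WT shMBD6 libraries were the lowest 3 of all 12 and overlapped no other group. Their log2 change from WT shControl was -0.68 ± 0.05 (95% interval -0.79 to -0.57, adjusted p = 1.58e-12, edgeR quasi-likelihood), and it passed in all 22 alternative settings, with values from -0.71 to -0.46. In TET2 KO the same contrast gave 0.13 ± 0.05 (edgeR adjusted p = 0.0459), a call that only 12 of 21 settings kept. It was lost, at 0.11 to 0.13, without KO shControl replicate 1 or 3, KO shMBD6 replicate 1 or 3, WT shControl replicate 2 or 3, or WT shMBD6 replicate 2. It was also lost at 0.06 under upper-quartile scaling and at 0.09 when scaled on genes well above background, whereas total gene counts gave 0.26. NFKB1 was slightly lower in KO shControl than in WT shControl, at -0.16 ± 0.05 (edgeR adjusted p = 0.0119), and this was lost without WT shControl replicate 2 or KO shControl replicate 1 (-0.14 each, edgeR adjusted p = 0.064 and 0.0636), while scaling to total gene counts took it to -0.34. Between the shMBD6 groups NFKB1 was higher in KO than in WT, by 0.65 ± 0.05 (edgeR adjusted p = 2.43e-12). The call held in all 21 settings, but upper-quartile scaling took the value to 0.33.

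REL, the subunit c-Rel best known from lymphocytes, changed more with TET2 loss and shControl than any other subunit gene but RELB. It stood at 34, 39.9 and 35.8 CPM in WT shControl, at 37.7, 39.8 and 38.5 in WT shMBD6, at 56.7, 53.5 and 54.7 in KO shControl and at 39.9, 39.9 and 42.7 in the libraries labelled KO shMBD6. The 3 KO shControl libraries lay above the other 9, which shared a narrow band. REL was 1.5-fold higher in KO shControl than in WT shControl (log2 0.59 ± 0.06, 95% interval 0.46 to 0.71, edgeR adjusted p = 6.74e-10) and lower in KO labelled shMBD6 than in KO shControl (-0.43 ± 0.06, edgeR adjusted p = 6.64e-07). Both calls held in every setting run (22 and 21). In WT cells the hairpin contrast was 0.08 ± 0.06 (edgeR adjusted p = 0.324), but 7 of 22 settings called it higher, up to 0.30 when scaled on genes well above background. Between the shMBD6 groups it was 0.08 and not called, but REL was called lower in KO under upper-quartile scaling (-0.24) and on genes well above background (-0.17). In the current annotation REL overlaps 2 small genes on its own strand, so reads there may have been set aside.

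RELA, whose p65 product pairs with p50 in the classical dimer, varied least among the subunits. It stood at 30.2, 28 and 27.4 CPM in WT shControl, at 24.8, 21.6 and 23.5 in WT shMBD6, at 25.4, 22.7 and 26.1 in KO shControl and at 23.8, 27.2 and 25.8 in the libraries labelled KO shMBD6. Every WT shControl library was above every library of the other groups, by a small margin. RELA was lower in WT shMBD6 (-0.29 ± 0.08, edgeR adjusted p = 0.00283), but 5 of 22 settings lost the call, and the value fell to -0.07 under scaling on genes well above background. It was lower in KO shControl by -0.20 ± 0.08 (edgeR adjusted p = 0.0329), a call lost without WT shControl replicate 1 (-0.16), WT shControl replicate 2 (-0.22) or KO shControl replicate 2 (-0.15), and -0.38 by total gene counts. In TET2 KO the hairpin contrast was 0.05 (95% interval -0.11 to 0.21), and KO over WT with shMBD6 was 0.14 and not called, but was called higher without KO shMBD6 replicate 1 (0.19) and lower under upper-quartile scaling (-0.19). The divergent transcript RELA-DT overlaps it on the other strand.

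NFKB2 encodes p100, the precursor of p52 and itself an inhibitor in the non-canonical branch. It stood at 11.8, 11.1 and 12 CPM in WT shControl, at 12, 10.4 and 11.5 in WT shMBD6, at 15.6, 14 and 16.8 in KO shControl and at 12.9, 17 and 12.1 in the libraries labelled KO shMBD6. All 6 KO libraries were above all 6 WT libraries, the lowest of them at 12.1 against a highest of 12 CPM. The rise with TET2 loss was 0.41 ± 0.11 on the log2 scale with shControl (edgeR adjusted p = 0.00335), which scaling to total gene counts reduced to 0.24 and out of the call. With shMBD6 it was 0.31 ± 0.12 (edgeR adjusted p = 0.0223), a call that 11 of 21 settings kept. It was lost without KO shMBD6 replicate 2 (0.15) or WT shMBD6 replicate 2 (0.26), and under 8 other settings that changed the scaling, filter, model or tool. Among these were total gene counts (0.16), genes well above background (0.06) and upper-quartile scaling, which turned the sign (-0.01). The MBD6 hairpin gave -0.04 in WT and -0.15 in KO, neither called, although the second was called at -0.31 without KO shMBD6 replicate 2.

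RELB, the partner of p52, had the widest range of group means on the log2 scale and the lowest counts of the subunits. It stood at 1.12, 0.643 and 0.707 CPM in WT shControl, at 2.19, 1.94 and 2.43 in WT shMBD6, at 2.18, 2.28 and 2.11 in KO shControl and at 1.22, 0.613 and 1.18 in the libraries labelled KO shMBD6. The WT shMBD6 and KO shControl libraries formed an upper set of 6 with no overlap with the other 6. RELB was 2.67-fold higher in WT shMBD6 (log2 1.42 ± 0.33, edgeR adjusted p = 0.000576) and 2.67-fold higher in KO shControl (1.42 ± 0.33, edgeR adjusted p = 0.000531), both against the same WT shControl libraries. It was lower in KO labelled shMBD6 than in KO shControl (-1.12 ± 0.33, edgeR adjusted p = 0.00629) and than in WT shMBD6 (-1.12 ± 0.33, edgeR adjusted p = 0.00387). These calls held wherever RELB was tested. RELB per kb of span lay under the olfactory receptor mean in each group, and that stray signal was also higher in the same upper groups, at 0.0636 CPM per kb in WT shControl, 0.0731 in WT shMBD6, 0.0914 in KO shControl and 0.0677 in the libraries labelled KO shMBD6. Beside these calls, 3 fibroblast genes summed to 0.637 to 1.15 CPM in WT shControl, 3.69 to 4.84 in WT shMBD6, 3.66 to 4.45 in KO shControl and 1.48 to 2.02 in the libraries labelled KO shMBD6. The upper groups of this sum were those of RELB. In KO, however, 2 of the 3 genes were called lower and 1 higher in the libraries labelled shMBD6. The sum of 4 monocyte and macrophage genes had the same upper groups, at 3.51 to 5.2 CPM in WT shMBD6 and 3.12 to 3.2 in KO shControl. It was 1.94 to 2.9 in WT shControl and 2.54 to 2.96 in the libraries labelled KO shMBD6. Sums of T cell and B cell genes did not part the groups this way. The part of these markers and of the stray signal in the RELB result was not tested.

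**Figure D3:**
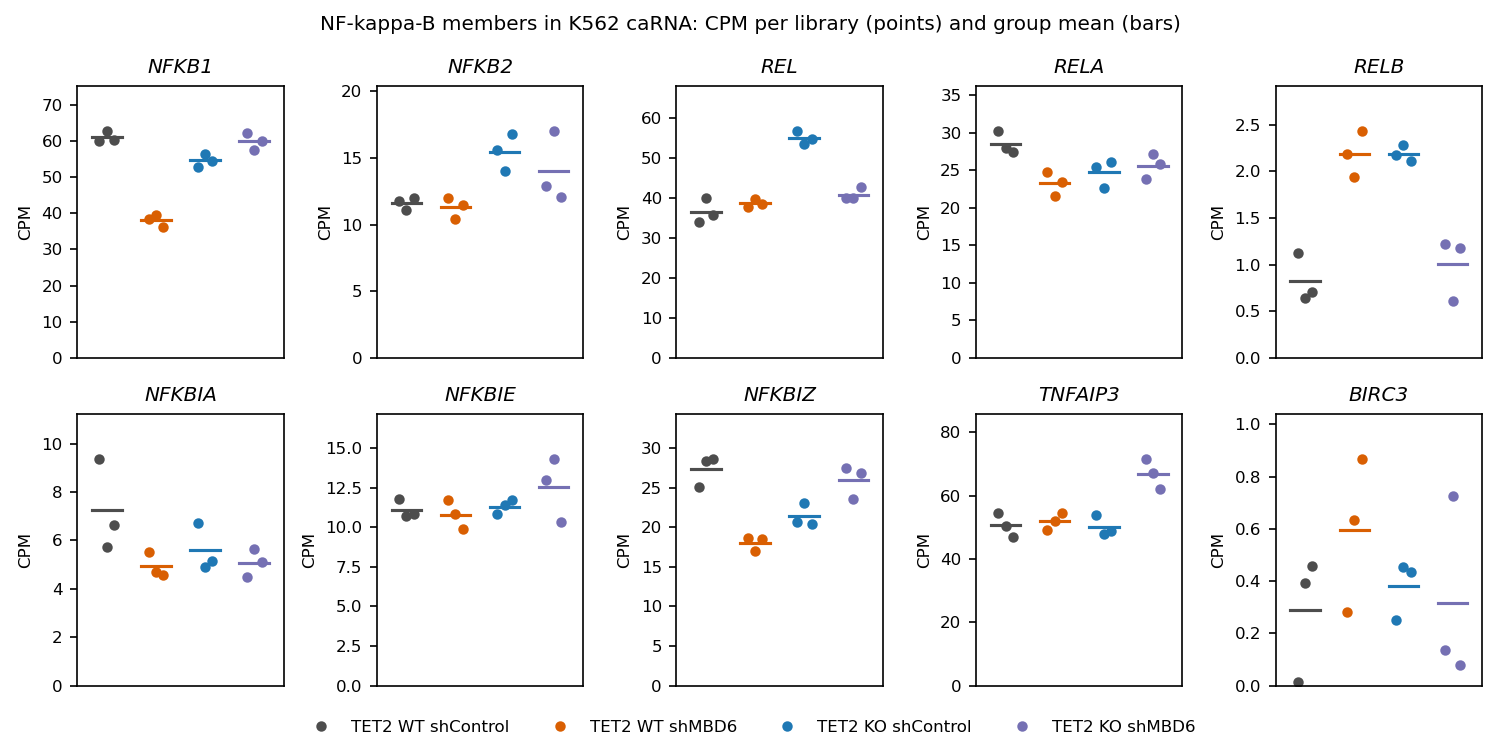
CPM of each member in each of the 12 libraries (points, 3 a group) with the group mean (bars); each panel has its own linear axis from 0. REL stands out in KO shControl, NFKB1 and NFKBIZ are low in WT shMBD6, TNFAIP3 is high in the libraries labelled KO shMBD6 and RELB is high in the 2 middle groups.

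NFKBIZ, which encodes the nuclear I-kappa-B zeta, had the same order of group means as NFKB1. It stood at 25.1, 28.4 and 28.6 CPM in WT shControl, at 18.6, 17 and 18.5 in WT shMBD6, at 20.7, 23.1 and 20.4 in KO shControl and at 27.5, 23.5 and 26.8 in the libraries labelled KO shMBD6. WT shMBD6 was again the lowest group, and KO shControl lay between it and the remaining groups without overlap. NFKBIZ was lower with the hairpin in WT (-0.60 ± 0.08, edgeR adjusted p = 2.81e-07) and lower with TET2 loss (-0.36 ± 0.08, edgeR adjusted p = 0.000557), each in all 22 settings, the first reduced to -0.38 when scaled on genes well above background. In KO it was higher in the libraries labelled shMBD6 (0.28 ± 0.08, edgeR adjusted p = 0.00807), which upper-quartile scaling took to 0.21 and out of the call. Between the shMBD6 groups it was higher in KO (0.52 ± 0.08, edgeR adjusted p = 2.44e-06). All 21 settings called this, but upper-quartile scaling took it to 0.20 (edgeR adjusted p = 0.0392) and scaling on genes well above background to 0.27. In the current annotation NXPE3 overlaps NFKBIZ on the same strand, so shared reads may have been set aside.

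NFKBIA, the I-kappa-B alpha gene whose promoter is printed above, had a weaker and less steady result. It stood at 9.37, 5.74 and 6.63 CPM in WT shControl, at 5.53, 4.69 and 4.57 in WT shMBD6, at 6.71, 4.91 and 5.15 in KO shControl and at 4.48, 5.63 and 5.12 in the libraries labelled KO shMBD6. WT shControl replicate 1 was the highest of the 12 libraries, and the WT shMBD6 libraries lay just below all of WT shControl. The hairpin contrast in WT was -0.55 ± 0.18 (95% interval -0.91 to -0.19, edgeR adjusted p = 0.012). It rested on WT shControl replicate 1 (-0.33, edgeR adjusted p = 0.169 without it) and on WT shMBD6 replicate 3 (-0.50, edgeR adjusted p = 0.0525 without it), and scaling by the upper quartile or on genes well above background also ended the call. The TET2 contrast with shControl was -0.37 ± 0.18 and was not called (edgeR adjusted p = 0.0893), whereas 6 of 22 settings called it, among them those without WT shControl replicate 2 (-0.51) and without KO shControl replicate 1 (-0.52). Without WT shControl replicate 1 it fell to -0.14 (edgeR adjusted p = 0.579), and without KO shControl replicate 2 or 3 it was -0.28 or -0.31. In KO the hairpin contrast was -0.14 (95% interval -0.51 to 0.22).

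NFKBIE, which encodes I-kappa-B epsilon, passed no test. It stood at 11.8, 10.7 and 10.8 CPM in WT shControl, at 11.7, 10.8 and 9.89 in WT shMBD6, at 10.8, 11.4 and 11.7 in KO shControl and at 13, 14.3 and 10.3 in the libraries labelled KO shMBD6. All groups overlapped. The 95% intervals of its log2 changes ran from -0.21 to 0.27 for TET2 loss with shControl, from -0.27 to 0.21 for the hairpin in WT and from -0.09 to 0.39 for the hairpin in KO. Leaving out KO shMBD6 replicate 3 brought 1 contrast, KO over WT with shMBD6, past the threshold (0.34 against 0.21 with all libraries).

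TNFAIP3, which encodes the ubiquitin-editing enzyme A20, was higher in a single group. It stood at 54.6, 50.5 and 46.9 CPM in WT shControl, at 49.2, 52 and 54.5 in WT shMBD6, at 54, 47.8 and 48.8 in KO shControl and at 71.6, 67.2 and 62 in the libraries labelled KO shMBD6. The last 3 lay above all 9 others, which overlapped. Against KO shControl the change was 0.41 ± 0.06 (95% interval 0.29 to 0.54, edgeR adjusted p = 1.7e-06) and held in all 21 settings. Against WT shMBD6 it was 0.37 ± 0.06 (edgeR adjusted p = 6.31e-06), but upper-quartile scaling took it to 0.05 and scaling on genes well above background to 0.12, both uncalled. TET2 loss with shControl gave -0.01 (95% interval -0.14 to 0.12) and the hairpin in WT 0.03 (-0.09 to 0.16), although scaling to total gene counts called the first lower (-0.19) and 3 settings called the second higher (up to 0.26). The antisense neighbour WAKMAR2 overlaps TNFAIP3.

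BIRC3, the cIAP2 ubiquitin ligase of TNF receptor complexes, was barely seen. It stood at 0.0138, 0.393 and 0.458 CPM in WT shControl, at 0.28, 0.635 and 0.867 in WT shMBD6, at 0.25, 0.453 and 0.435 in KO shControl and at 0.137, 0.727 and 0.0779 in the libraries labelled KO shMBD6. The lowest of these values was 1 count. Groups overlapped throughout, no contrast was called, and the 95% intervals were several log2 units wide, so a difference was not detectable at this depth. Without KO shMBD6 replicate 2 the contrast of KO over WT with shMBD6 was called at -2.45, against -0.91 with all libraries.

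Read as a set, the members were called about as often as other genes. With shControl, 6 of the 10 differed between TET2 KO and TET2 WT, NFKB2, REL and RELB higher and NFKB1, RELA and NFKBIZ lower, where 45.8% of all genes tested were called (23.5% higher and 22.3% lower). The median log2 change of the members was 0.01 and that of all genes -0.05. With the hairpin in WT, 5 were called, RELB higher and NFKB1, RELA, NFKBIA and NFKBIZ lower, against 42.5% of all genes (17.7% higher and 24.7% lower), with medians of -0.04 and 0.10. In KO, 5 were called between the libraries labelled shMBD6 and shControl, NFKB1, NFKBIZ and TNFAIP3 higher and REL and RELB lower, against 36.4% (15.7% higher and 20.6% lower). Between the shMBD6 groups 5 were called, NFKB1, NFKB2, NFKBIZ and TNFAIP3 higher in KO and RELB lower, against 58.6% (30.1% higher and 28.5% lower). None of these shares stood far from its background, and the contrasts share libraries in pairs, so that they are not separate pieces of evidence.

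**Figure D4:**
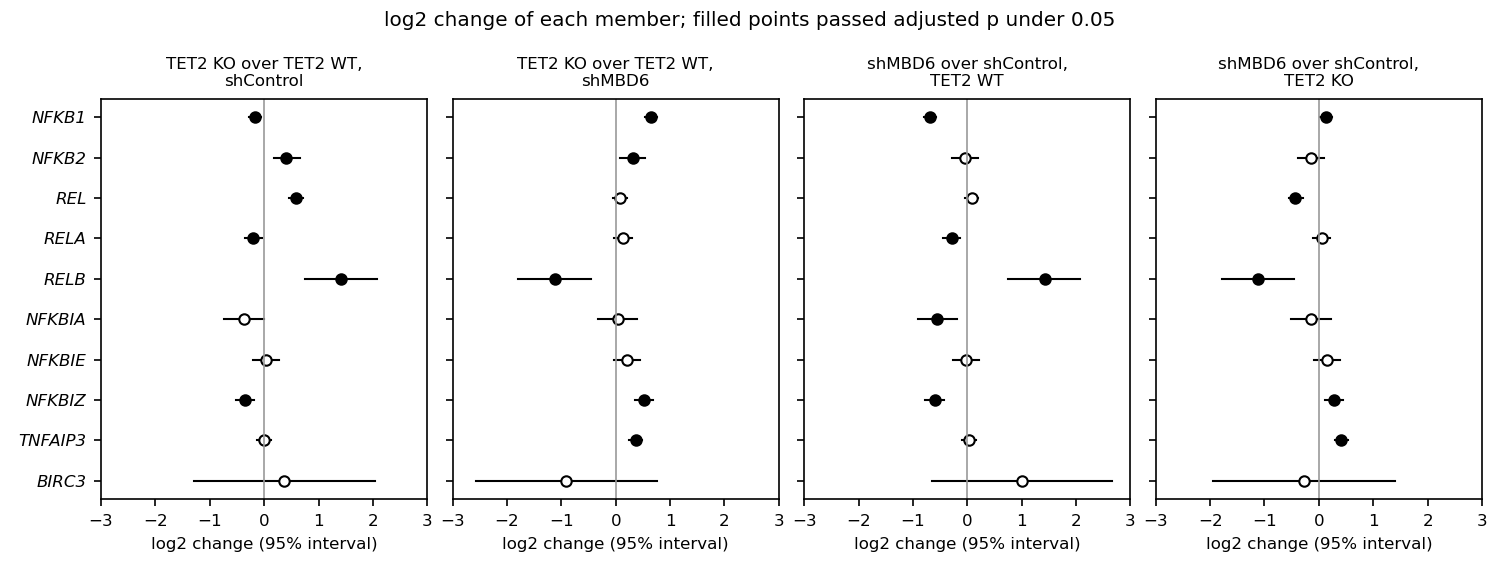
log2 change of each member with its 95% interval in 4 contrasts of 3 against 3 libraries; filled points passed an adjusted p of 0.05 over all 26023 genes tested and open points did not. NFKB1, RELB and NFKBIZ were called in all 4 contrasts and NFKBIE and BIRC3 in none.

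The scaling of the libraries set how such changes should be read. The median change of all genes for the hairpin in WT was 0.10 under TMM and 0.32 when scaled on genes well above background, and that for KO over WT with shMBD6 was -0.03 under TMM and -0.35 under upper-quartile scaling. Subtracting the median of all genes takes the scaling out by construction and gives changes relative to the typical gene under the filter used. That median moved with the filter: for the hairpin in WT it was -0.01 with a stricter filter and 0.4 with none. With the stricter filter REL (0.16) and TNFAIP3 (0.12) lay above it, so small relative changes depend on the filter. For the hairpin in WT this relative change was -0.78 for NFKB1, -0.70 for NFKBIZ, -0.64 for NFKBIA, -0.39 for RELA, -0.02 for REL, -0.06 for TNFAIP3 and 1.32 for RELB. For TET2 loss with shControl it was 0.64 for REL, 0.47 for NFKB2, 1.47 for RELB, -0.30 for NFKBIZ, -0.15 for RELA and -0.11 for NFKB1. For KO over WT with shMBD6 it was 0.68 for NFKB1, 0.55 for NFKBIZ, 0.40 for TNFAIP3 and 0.34 for NFKB2.

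The effect of the hairpin differed by genotype for 6 of the 10 members, 4 upward and 2 downward, where 49.4% of all genes were called (23.9% upward and 25.5% downward). The interaction, the hairpin effect in KO minus that in WT, was 0.81 ± 0.07 for NFKB1 (edgeR adjusted p = 4.23e-11) and 0.88 ± 0.12 for NFKBIZ (edgeR adjusted p = 1.13e-07). Both genes were called lower with the hairpin in WT and higher in KO, where the NFKB1 call was held by 12 of 21 settings and the NFKBIZ call by 20. For REL it was -0.51 ± 0.09 (edgeR adjusted p = 8.25e-06), and for RELB -2.54 ± 0.46 (edgeR adjusted p = 2.17e-05), which was called higher with the hairpin in WT and lower in KO. These 4 interactions held in all 20 settings run, with REL at -0.77 when scaled on genes well above background. RELA (0.34 ± 0.11, edgeR adjusted p = 0.0117) and TNFAIP3 (0.38 ± 0.09, edgeR adjusted p = 0.000516) passed as well, but under scaling on genes well above background they were 0.07 and 0.11 and were not called. NFKB2 (-0.10), NFKBIA (0.41), NFKBIE (0.19) and BIRC3 (-1.28) were not called.

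Ratios of 2 members within a library do not depend on how libraries are scaled, so 5 members were also set against RELA. NFKBIA counts per 100 RELA counts averaged 25.2 ± 5.33 in WT shControl, 21.2 ± 1.5 in WT shMBD6, 22.6 ± 3.46 in KO shControl and 19.8 ± 0.924 in the libraries labelled KO shMBD6 (SD, n = 3 each), with overlap between neighbouring groups. NFKBIE was at 38.8 ± 0.686, 46.5 ± 4.08, 45.8 ± 3.91 and 49.1 ± 8.08 per 100 in the same order. Its 3 WT shControl ratios, 38 to 39.3, were below all 9 others. TNFAIP3 was at 177 ± 5.33, 224 ± 22.6, 203 ± 14.2 and 263 ± 33.5 per 100, and the WT shControl ratios (171 to 181) were again below all others. RELA, the denominator, was itself highest in WT shControl (27.4 to 30.2 CPM). In CPM, WT shControl, WT shMBD6 and KO shControl had means of 50.7, 51.9 and 50.2 for TNFAIP3 and 11.1, 10.8 and 11.3 for NFKBIE. The low WT shControl ratios thus also carry the RELA level. NFKB1 was at 214 ± 13.5 per 100 in WT shControl and 164 ± 16.2 in WT shMBD6, whose ratios of 155 to 183 were the lowest of the 12 libraries. REL was at 129 ± 15.2 per 100 in WT shControl and 223 ± 12.9 in KO shControl, where the ratios of 210 to 235 were above the other 9. These ratios are descriptions and carry no test, and counts were not divided by length.

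**Figure D5:**
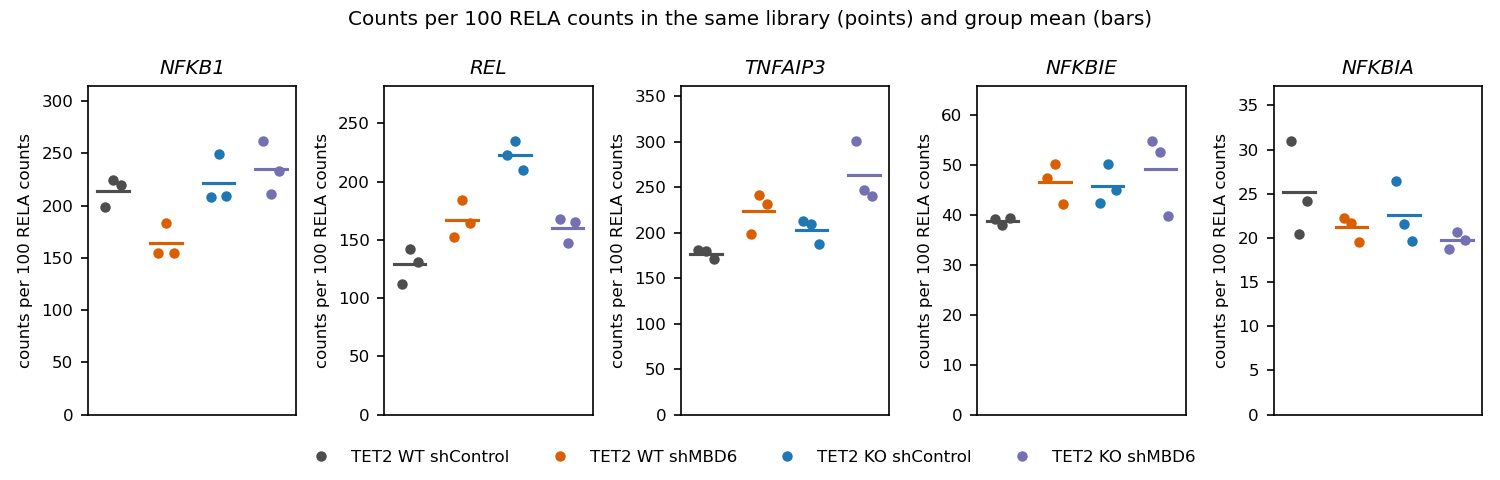
Counts of 5 members per 100 RELA counts of the same library (points, 3 a group) with the group mean (bars), on linear axes from 0. NFKB1 was lowest in WT shMBD6 (155 to 183), REL was highest in KO shControl (210 to 235) and TNFAIP3 was highest in the libraries labelled KO shMBD6 (240 to 301), above all but WT shMBD6 replicate 2 (241).

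Around the members, MALT1 had the largest log2 change with TET2 loss and shControl among the listed pathway genes with at least 1 CPM in a compared group. MALT1 encodes the paracaspase that relays antigen receptor signals to the I-kappa-B kinases. It stood at 3.13, 2.56 and 2.63 CPM in WT shControl, 4.93, 5.55 and 4.57 in WT shMBD6, 45.8, 47.2 and 46.8 in KO shControl and 57.4, 59.1 and 59.2 in the libraries labelled KO shMBD6. The KO libraries thus lay far above the WT libraries, at a log2 change of 4.08 ± 0.09 with shControl (edgeR adjusted p = 3.05e-28). Of the 23 kinases and adaptors upstream listed, 8 were higher and 5 lower with TET2 loss and shControl, against 23.5% and 22.3% of all genes tested, with a median change of 0.04 against -0.05. TRAF5, an adaptor of TNF receptors, was the other one named by the rule, at 21.8 ± 0.568 CPM in WT shControl and 52.1 ± 1.77 in KO shControl (1.26 ± 0.06, edgeR adjusted p = 8.35e-19). With the hairpin in WT 13 of the 23 were lower and 5 higher under TMM, against 24.7% and 17.7% of all genes, but 4 were lower and 6 higher when scaled on genes well above background. RBCK1, the HOIL-1 part of the linear ubiquitin ligase, was at 69.9 ± 1.55 CPM in WT shControl, 123 ± 3.22 in WT shMBD6, 113 ± 4.23 in KO shControl and 80.8 ± 3.18 in the libraries labelled KO shMBD6. Its partner SHARPIN was at 24.2 ± 0.795, 15.1 ± 1.24, 21.5 ± 1.63 and 28.2 ± 2.86 CPM in the same order. The interactions of RBCK1 and SHARPIN had opposite signs (-1.29 ± 0.06 and 1.07 ± 0.12, edgeR adjusted p = 1.13e-18 and 6e-09).

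The 16 other inhibitors were led by BCL3, an I-kappa-B relative that works in the nucleus with p50 and p52. BCL3 stood at 2.08, 2.16 and 2.4 CPM in WT shControl, 5.88, 5.91 and 5.8 in WT shMBD6, 6.03, 5.68 and 5.09 in KO shControl and 2.86, 4.82 and 3.62 in the libraries labelled KO shMBD6. As for RELB, WT shMBD6 and KO shControl were the upper groups, with log2 changes from WT shControl of 1.40 ± 0.19 and 1.34 ± 0.19 (edgeR adjusted p = 2.43e-07 and 4.77e-07). NKIRAS2, which encodes a small GTPase that slows the loss of I-kappa-B, took the other course, at 20.2 ± 0.96, 14.1 ± 1.39, 13.7 ± 1.3 and 21 ± 2.95 CPM. Of the 16, 3 were higher and 3 lower with TET2 loss and shControl, where 23.5% of all genes were higher and 22.3% lower. With the hairpin in WT 2 were higher and 8 lower under TMM (4 and 2 when scaled on genes well above background), where 17.7% of all genes were higher and 24.7% lower. OTULIN, which removes linear ubiquitin chains, was higher in KO than in WT between the shMBD6 groups (92.4 ± 1.69 against 58.4 ± 1.68 CPM, 0.66 ± 0.04, edgeR adjusted p = 2.22e-14).

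Few ligands were seen. Of 20 ligands and receptors 14 were tested, 3 of them higher and 3 lower with TET2 loss and shControl, against 23.5% and 22.3% of all genes. TNF, LTA, LTB and TLR4 were listed at 0 in all 12 libraries. The first 3 lie in the major histocompatibility complex, where 36.2% of protein-coding genes (55 of 152 between 29 and 33 Mb of chromosome 6) were at 0 against 3.29% on the rest of the chromosome, and DDX39B, which every cell uses, was at 0 as well. Listed at 0 therefore does not mean not transcribed there. TNFSF13B, the BAFF ligand, was at 4.66 ± 0.576 CPM in WT shControl, 7.46 ± 0.638 in WT shMBD6, 8.56 ± 0.415 in KO shControl and 3.5 ± 0.223 in the libraries labelled KO shMBD6, and was lower in the last group than in KO shControl (-1.29 ± 0.15, edgeR adjusted p = 1.97e-08). TNFRSF1A, the main TNF receptor, was higher there (17.5 ± 0.628 against 11.7 ± 1.45 CPM, 0.58 ± 0.10, edgeR adjusted p = 2.1e-05). CD40, a receptor of the non-canonical branch, was at 5.14 ± 0.294 CPM in WT shMBD6 and 2.06 ± 0.331 in the libraries labelled KO shMBD6 (-1.32 ± 0.24, edgeR adjusted p = 1.56e-05). IL1A, IL1RAP and TNFRSF11A, also named by the rule, had group means of 0.271 to 1.93 CPM.

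Other known target genes went both ways, as the members did. Of 24 tested 10 were higher and 4 lower with TET2 loss and shControl (median 0.36), against 23.5% and 22.3% of all genes and a median of -0.05. With the hairpin in WT 6 were higher and 7 lower, against 17.7% and 24.7%. CD69, an activation marker of lymphocytes, stood at 55.1, 50.2 and 52 CPM in WT shControl and at 19.8, 17.9 and 17.4 in KO shControl (-1.51 ± 0.07, edgeR adjusted p = 1.19e-18). The chemokine gene CXCL2 was lower there too (2.22 ± 0.182 against 7.33 ± 1.33 CPM, -1.72 ± 0.21, edgeR adjusted p = 1.94e-08). IL6, like RELB, was highest in WT shMBD6 and KO shControl, at 1.39 ± 0.301 CPM in WT shControl, 4.68 ± 0.524 in WT shMBD6, 3.16 ± 0.108 in KO shControl and 1.49 ± 0.078 in the libraries labelled KO shMBD6. Its interaction was -2.83 ± 0.33 (edgeR adjusted p = 8.04e-09). TNFRSF9, at 0.116 to 1.31 CPM by group mean, and GADD45B, lower in KO labelled shMBD6 than in KO shControl (1.05 ± 0.57 against 2.76 ± 0.226 CPM), completed those named.

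Across the 12 libraries the genes most like RELB in log2 CPM, among 15459 genes, were SHANK1 (Pearson r = 0.97), FAM171B (0.959) and TMEM255B (0.959). Those most like NFKBIA were ATAD3B (0.95), MAMDC4 (0.919) and EIF4EBP2 (0.887). These r values describe 12 points in 4 groups that share preparation and scaling, and they were picked as the highest of many.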

How the data were processed

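Chromatin-associated RNA of K562 was sequenced by the authors after ribosomal RNA depletion, with a stranded total RNA kit. Per the study's methods and the submitters' processing notes, reads were trimmed with Trimmomatic 0.39, aligned with HISAT2 2.2.1 to hg38 and counted with HTSeq 0.12.4 on a GENCODE annotation. The authors deposited 1 table of unscaled read counts for each library, without pooling. The strand setting and the feature type of counting are not given in the sources used here, so levels were given per kb of gene span and of exon union. Reads outside genes made up 13.1% to 16% of records, ambiguous reads 4.63% to 5.24% and reads aligned more than once 10.1% to 11.2%, and none of these entered a test. The tables held no lines for spike-in RNA, so a change in total caRNA per cell cannot be seen. In bulk RNA, fewer cells with a transcript and less RNA per cell cannot be told apart. The study's list of libraries names siRNA where the labels name shRNA, and the labels were followed. The mouse tables of the series were not used here.

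Gene identifiers were matched to a later GENCODE release on GRCh38 (58252 of 58721). Counts were analysed with edgeR 4.0.16 in R 4.3.3, with TMM scaling, filterByExpr (minimum count 10), glmQLFit with robust estimation and glmQLFTest on 1 model of the 4 groups, two-sided, with Benjamini-Hochberg adjustment over the 26023 genes tested and a threshold of 0.05. This edgeR quasi-likelihood test gave every adjusted p. On simulated counts for TET2 KO over TET2 WT with shControl, over 24914 genes, 71% of 1.5-fold and 90% of 2-fold changes were recovered with 8 false calls. The simulation raised 200 genes above 1 CPM in KO shControl and left all others unchanged. Far more genes were called in the data, in both directions, so these figures are not the error rate of the reported calls. Counts of libraries of a group differed by more than sampling noise, so no library was treated as deposited again.

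The members and the lists of other pathway genes were chosen with earlier results of these data known, and no count over them is independent support. Genes outside the members were named by a rule: up to 2 called genes per list and comparison with the largest change, at a mean of at least 1 CPM in a compared group, and the 3 genes most like NFKBIA and most like the member of widest range. Alternatives were DESeq2 1.42.0, DESeq2 size factors, total gene counts, upper-quartile scaling, no filter, a stricter filter (1 CPM in 3 libraries), a model of only the groups compared, a replicate block and each library left out. After the data were seen, scaling on 8153 genes at least 10 times the olfactory receptor mean and a model without the TET2 KO shMBD6 group were added.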

Additional observations from a re-analysis of the deposited data

Results flagged for a closer look

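For 6 members the effect of the MBD6 hairpin in TET2 KO differed from that in TET2 WT by the interaction test (edgeR quasi-likelihood, adjusted over all genes). The difference, KO minus WT on the log2 scale, was 0.81 for NFKB1, -0.51 for REL, 0.34 for RELA, -2.54 for RELB, 0.88 for NFKBIZ and 0.38 for TNFAIP3. Of all genes tested 49.4% differed in this way, and in the libraries labelled KO shMBD6 the MBD6 transcript was not lower than in KO shControl (34.4 ± 3.86 against 30.3 ± 0.75 CPM, SD, n = 3), so these differences rest on that group's label. The RELA and TNFAIP3 differences were not called under upper-quartile scaling (0.08 and 0.12).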

How the results depend on the processing

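Pairing of the libraries by replicate number was weak at most. Same-numbered libraries of different groups correlated at -0.0161 to 0.108 in their deviations from group means, with 1 of 18 pairs over 0.1. In 9 of 18 cases the same number was the best match. Each WT shControl library was best matched by the same-numbered WT shMBD6 library (r = 0.108, 0.0551 and 0.0382). With a replicate block the counts of members called were 6, 5, 5, 5 and 6 for TET2 loss with shControl, the hairpin in WT, the hairpin in KO, TET2 loss with shMBD6 and the interaction, as without it. Leaving out each library in turn gave 5 to 6, 4 to 5, 4 to 6, 4 to 6 and 6. For the hairpin in KO, upper-quartile scaling called 3 members in place of 5. Scaling moved the split of all called genes: the higher and lower calls were 6127 and 5794 for TET2 loss with shControl (4523 and 8285 by total gene counts), 4616 and 6431 for the hairpin in WT (7453 and 3084 when scaled on genes well above background), 4095 and 5370 for the hairpin in KO (6046 and 4047 by total gene counts), 7837 and 7422 for TET2 loss with shMBD6 (3660 and 10989 by upper quartile) and 6225 and 6627 for the interaction (4028 and 8803 when scaled on genes well above background). The cause of the changes of sign below was not tested, and of the values that changed sign NFKB2 and MBD6 for TET2 loss with shMBD6 were called as reported and the rest were not. For the hairpin in WT, NFKB2 (-0.04) was 0.07 by DESeq2 and by its size factors, 0.06 by total gene counts or no filter, 0.04 with the stricter filter, 0.14 by upper quartile and 0.18 on genes well above background, and NFKBIE (-0.03) was 0.07, 0.07, 0.06, 0.07, 0.05, 0.15 and 0.19 in that order. For TET2 loss with shMBD6, NFKBIA (0.04) was -0.08, -0.08, -0.11, -0.02, -0.07, -0.28 and -0.21 in the same order and -0.03 when only the 2 groups compared were modelled. In that contrast REL (0.08) was -0.04 by DESeq2 and its size factors, -0.07 by total gene counts, -0.03 with the stricter filter, and called lower at -0.24 by upper quartile and -0.17 on genes well above background. RELA (0.14) was -0.01 by total gene counts, -0.12 on genes well above background and called lower at -0.19 by upper quartile, NFKBIE (0.21) was -0.11 by upper quartile and -0.04 on genes well above background, and upper-quartile scaling took NFKB2 (0.31) to -0.01 and MBD6 (0.30) to -0.02. By upper quartile RELA for the hairpin in KO (0.05) was -0.02. The interaction of NFKBIE (0.19) was -0.07 by upper quartile and -0.08 on genes well above background. For TET2 loss with shControl NFKBIE (0.03) was -0.15 by total gene counts, -0.04 by upper quartile and -0.06 without the TET2 KO shMBD6 group, and TET2 (0.09) was -0.09 by total gene counts. With each library left out, TET2 loss with shControl ranged from -0.07 to 0.04 for TNFAIP3 and from -0.17 to 0.85 for BIRC3, the hairpin in WT from -0.10 to 0.02 for NFKBIE, -0.02 to 0.08 for TNFAIP3 and -0.09 to 0.01 for NFKB2, the hairpin in KO from -0.23 to 0.01 for NFKBIA, -0.01 to 0.10 for RELA and -1.81 to 0.20 for BIRC3, and TET2 loss with shMBD6 from -0.04 to 0.13 for NFKBIA. BIRC3 and RELB had the fewest counts and the largest standard errors of the members. Scaling by spike-in was not possible here.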
